A study of Mus musculus with 6 samples.

Results

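The genes described here are 48 genes of mitosis and the mitotic spindle. They were taken by symbol from a list of kinesin motors, kinetochore and checkpoint proteins, cyclins and mitotic kinases, spindle, cytokinesis and chromosome proteins, and all 48 of 48 were measured, among 19936 genes in all. Each gene was represented by a probe set annotated to exactly 1 gene symbol, and where a gene had several, by the brightest over the 6 arrays. RNA came from 3 lines of mouse endothelial cells, grown out of embryonic stem cells, which the labels name by the cadherin they express: VE+N (VE-cadherin and N-cadherin), VE (VE-cadherin) and N (N-cadherin), with 2 Affymetrix Mouse Gene 1.0 ST arrays a line. Each cadherin state is thus 1 line, and the labels do not say how each line came to carry its cadherins. Cells of all 3 lines were plated at 50000 per square centimetre, grown for 72 h in medium with 20% serum, heparin and endothelial growth supplement so that they stayed confluent, and then kept for 18 to 20 h in medium without serum that held 1% albumin. Values are log2 signals made by the authors with RMA, so that a difference of 1 is a 2-fold difference. Levels of different genes are not compared with each other because probes differ in response. Where a signal is set against the median gene, this places it only roughly. The labels of the lines were checked on their cadherins. Cdh2, or N-cadherin, had log2 signals of 6.69 and 6.700 on the VE+N-labelled arrays, 5.797 and 5.93 on the VE-labelled arrays and 7.66 and 7.67 on the N-labelled arrays. It was thus lowest in the line whose label leaves out N-cadherin. The labels give no order between VE+N and N, and Cdh2 was lower in VE+N than in N by the test used below (−0.97, adjusted p = 0.000315). Cdh5, or VE-cadherin, had 7.05 and 7.16 on the VE+N-labelled arrays, 7.05 and 6.83 on the VE-labelled arrays and 7.26 and 7.296 on the N-labelled arrays, and no difference in Cdh5 passed the test used below, so its single probe set does not bear out the VE part of the labels. The lines are therefore called by their labels, and each direction below rests on those labels.

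At mitosis the cyclin-dependent kinase Cdk1, with cyclins A and B, drives chromosome condensation and spindle assembly; kinesins and kinetochores align the chromosomes, the spindle checkpoint holds back the anaphase-promoting complex until every kinetochore is attached, and the central spindle then directs cleavage. Most genes for these proteins are transcribed late in the cell cycle and are kept silent in resting cells by the DREAM complex, whose MuvB core binds a short promoter element, the cell cycle genes homology region (CHR). The B-Myb and FoxM1 factors activate the same genes together with NF-Y, which binds CCAAT boxes. In a confluent endothelial layer most cells are resting.

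All 48 genes had their highest signals in the VE-labelled line. On both VE-labelled arrays each gene lay above both VE+N-labelled and both N-labelled arrays, a pattern without overlap that 9.54% of all genes showed. The opposite pattern, both VE-labelled arrays below the other 4, was seen in 0 of the 48 and in 12.1% of all genes. The VE+N-labelled and N-labelled lines lay close together. The mean log2 signal of the 48 genes was 6.97 and 6.85 on the VE+N-labelled arrays, 7.97 and 8.07 on the VE-labelled arrays and 6.95 and 6.95 on the N-labelled arrays. RNA was taken from whole cultures, so more dividing cells and more of these transcripts in each cell cannot be told apart. In 46 of 48 genes the mean over the 6 arrays was above that of the median gene. This is a rough placing that does not show detection over background.

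**Figure D1:**
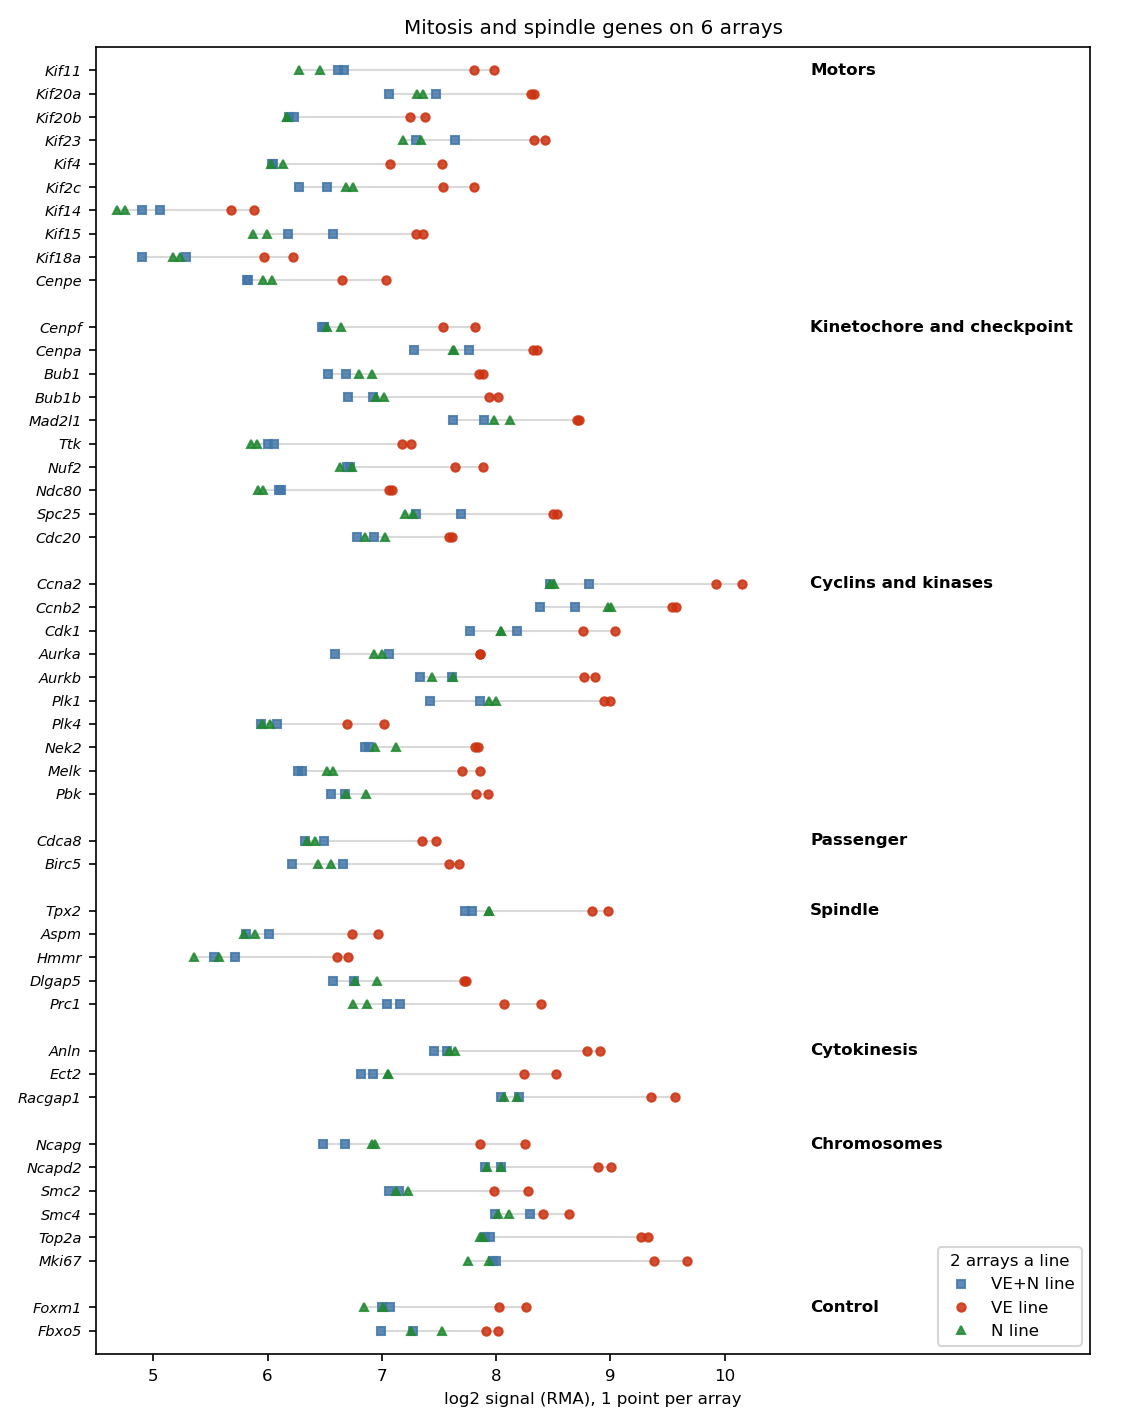
Log2 RMA signal of the 48 mitosis and spindle genes, 1 row a gene and 1 point an array, grouped by role, with squares for the VE+N-labelled, circles for the VE-labelled and triangles for the N-labelled line. In each row the 2 circles stand to the right of all 4 other points.

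The lines were compared with limma, fitting a mean for each line to the 6 arrays together, and a gene was called at a Benjamini-Hochberg adjusted p below 0.05 over all 19936 genes. Against the N-labelled line, 47 of 48 genes rose in the VE-labelled line and 0 fell, beside 8.46% of all genes called higher and 6.99% called lower. Of all called genes 54.8% were higher in VE, and 34.9% after median centring. The median difference was 1.07 log2 units for the 48 genes and −0.02 for all genes, and 29 of the 48 were called and over 2-fold higher, beside 2.58% of all genes. Against the VE-labelled line, 47 of 48 genes were called lower in VE+N and 0 higher, beside 5.84% called lower and 4.29% called higher among all genes. Of all called genes 42.3% were higher in VE+N, and 60.8% after median centring. The median difference there was −1.06 log2 units for the 48 genes and 0.03 for all genes, and 33 of the 48 were called and over 2-fold lower, beside 1.97% of all genes. At an unadjusted p below 0.05, 48 were higher and 0 lower in VE against N, and 48 lower and 0 higher in VE+N against VE. How many of all genes passed at this unadjusted threshold was not counted, and the shares above belong to the adjusted one. Both comparisons use the same 2 VE-labelled arrays, so their values are not independent of each other. The only gene called in neither was Smc4. Both calls together, higher in the VE-labelled line than in N and lower in VE+N than in VE, were made for 47 of the 48 genes and for 3.12% of all genes.

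Between the VE+N-labelled and N-labelled lines, 0 of 48 genes were called higher and 1, Ccnb2, lower, beside 10.2% of all genes called higher and 8.91% called lower in the same comparison. At an unadjusted p below 0.05 the counts were 2 higher and 6 lower. The share of all genes at that threshold was not counted, so these counts have no background to be read against. The authors' analysis of variance, rerun here with Benjamini-Hochberg adjustment, called 1 higher (Ndc80) and 0 lower, beside 960 and 907 of all 19936 genes. The median difference was −0.06 log2 units, with 19 genes above 0 and 29 below. For each of the 48 genes the 95% interval of this difference lay within 1 log2 unit of 0, from a lowest bound of −0.74 to a highest bound of 0.77, and 91.2% of all genes had such an interval. A smaller difference than these bounds is thus not shown to be absent. The VE+N-labelled arrays were both above both N-labelled arrays in 10 of the 48 genes and both below in 16, beside 27.6% and 27.5% of all genes.

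**Figure D2:**
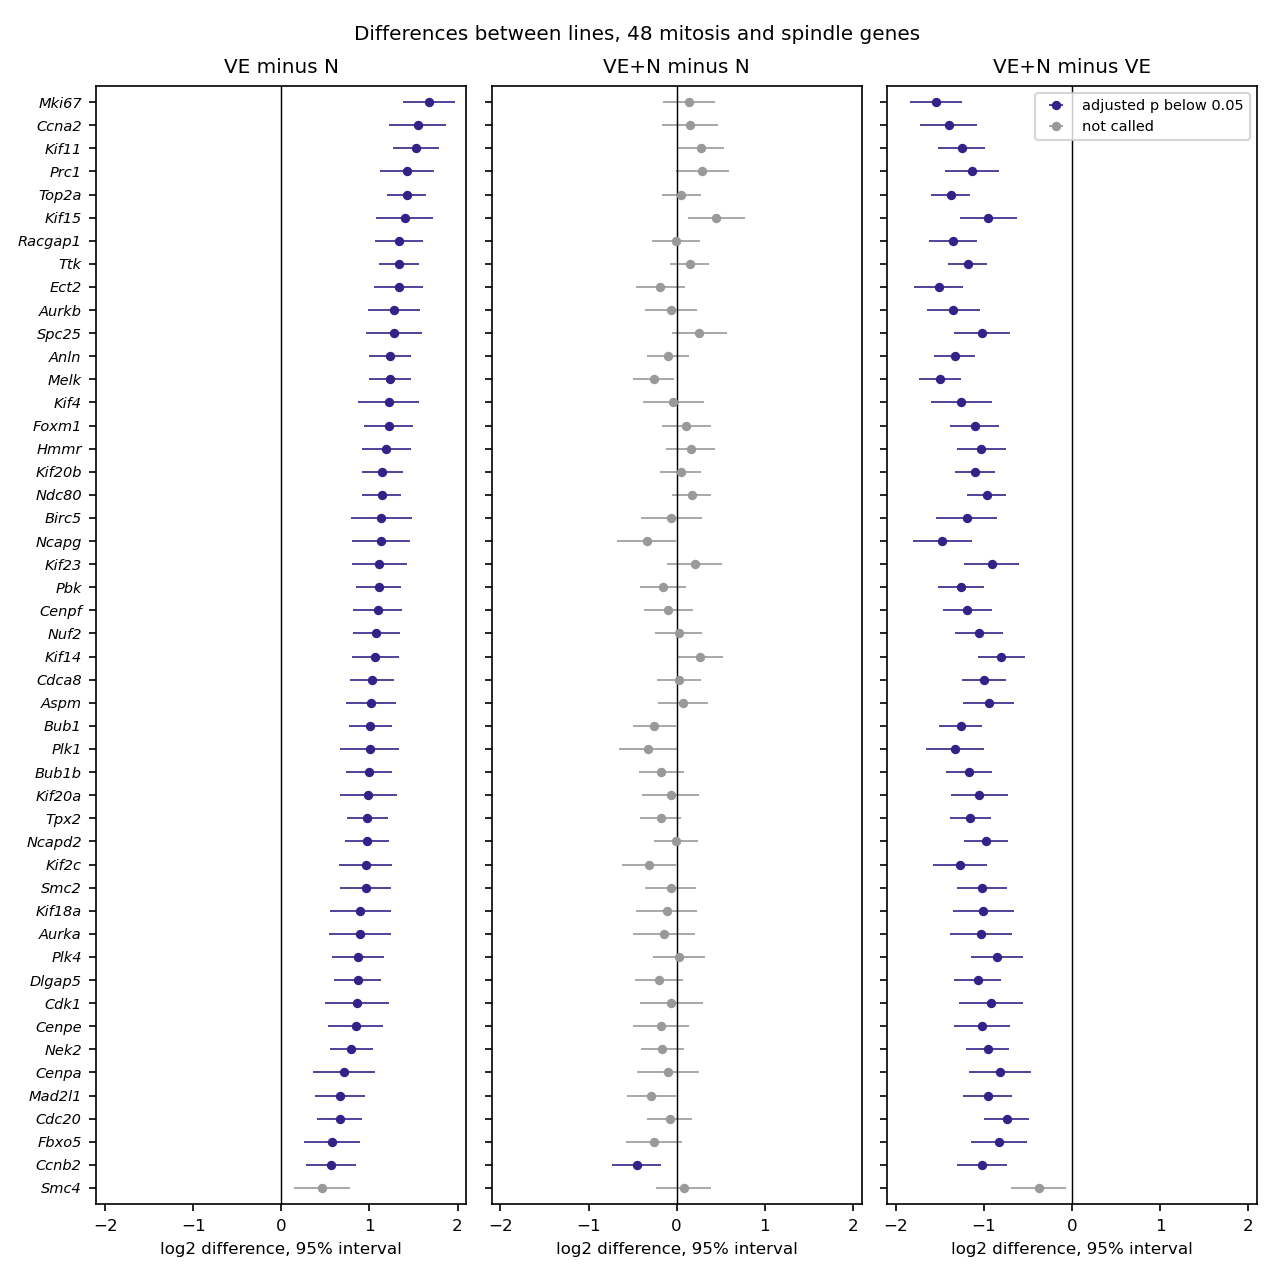
Log2 difference of each of the 48 genes, with its 95% interval from limma, for VE minus N in the left panel, for VE+N minus N in the middle panel and for VE+N minus VE in the right panel, ordered by the left panel. Dark points passed an adjusted p of 0.05: 47 of 48 on the left, 1 in the middle and 47 on the right.

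Markers of other cell types were read beside these genes. All 10 endothelial markers were above the median gene in every line, and each of 8 pluripotency markers was below it in every line. Of the endothelial markers 1 rose and 2 fell in VE against N, while 4 rose and 0 fell in VE+N both against VE and against N; no pluripotency marker was called by limma in any comparison. Of 8 fibroblast markers 7 rose and 0 fell in VE against N, 0 rose and 7 fell in VE+N against VE, and 0 rose and 3 (Col3a1, Postn and Dcn) fell in VE+N against N, by −2.77, −2.50 and −1.32 log2 units. The list averaged 4.65 to 4.79 on the VE+N-labelled, 7.40 to 7.45 on the VE-labelled and 5.61 to 5.67 on the N-labelled arrays. Of 10 mural markers 0 rose in any comparison, and 3 fell in VE against N, 6 in VE+N against N and 3 in VE+N against VE, where Pdgfrb, Notch3 and Acta2 differed by −4.295, −2.44 and −1.19 log2 units. Array means of the mural list were 4.300 to 4.44 in VE+N, 5.15 to 5.27 in VE and 5.60 to 5.61 in N. Of 8 leukocyte markers 0 rose and 1, Cd68, fell in each comparison, by −1.31 in VE+N against VE. Fibroblast markers were thus called in the directions of the 48 genes in VE minus N and VE+N minus VE, and mural markers and Cd68 in VE+N minus VE; in VE+N minus N, where 1 of the 48 genes was called, markers of all 3 kinds fell. Their part in the result was not tested. The titles call the arrays of a line biological replicates, and different RNA extractions were used; no source used here says that the cultures were separate, so p-values measure the spread between extracts of 1 line for each cadherin state.

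Some calls rest on both arrays of a line. In VE minus N the calls of Cenpa and Ccnb2 were lost without any 1 of VE replicate 1, VE replicate 2, N replicate 1 or N replicate 2, and those of Mad2l1 without VE replicate 1, VE replicate 2 or N replicate 1. The calls of Fbxo5 were lost without VE replicate 1, VE replicate 2 or N replicate 2, that of Cdk1 without VE replicate 1, and those of Aurka and Kif18a without VE replicate 2. The lowest count of genes called higher was 41 and the lowest median 0.99 (both without VE replicate 2). In VE+N minus VE the count of genes called lower stayed between 44 and 47 with 1 array left out, and the calls lost were those of Cenpa and Fbxo5 without VE replicate 1, Cdk1 without VE replicate 1, Cenpa, Kif18a and Kif23 without VE replicate 2 and Fbxo5 without VE+N replicate 2. Centring each array on its median lowered every VE minus N difference by 0.11, and the median of the 48 genes was then 0.96 with 47 still called higher.

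Before the single genes, promoters are shown for 5 of the 9 genes whose 150 bases before the annotated start hold the CHR and the CCAAT box together. The 5 are genes of motors, kinetochore, mitotic kinases and chromosome proteins. Melk, a gene whose window held neither element, is shown beside them. In the wider windows described below, 27 of 40 genes held both elements. Only 9 held both within the 150 bases before the start, so the layout shown is not that of most genes. The sequences are RefSeq promoter windows of GRCm38.p6, 5′ to 3′ on the strand of the gene, ending at the last base before the start, with matches to the CHR (TTTGAA or TTCGAA) and to the CCAAT box in capitals, on either strand.
Mki67 (chr7:135716380-135716529, minus strand): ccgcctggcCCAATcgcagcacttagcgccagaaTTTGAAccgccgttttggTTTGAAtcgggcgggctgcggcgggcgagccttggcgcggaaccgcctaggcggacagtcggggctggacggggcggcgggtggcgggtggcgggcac
Top2a (chr11:99024190-99024339, minus strand): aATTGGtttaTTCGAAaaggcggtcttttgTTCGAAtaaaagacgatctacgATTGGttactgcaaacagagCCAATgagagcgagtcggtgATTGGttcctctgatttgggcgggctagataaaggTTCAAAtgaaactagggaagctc
Kif11 (chr19:37376232-37376381, plus strand): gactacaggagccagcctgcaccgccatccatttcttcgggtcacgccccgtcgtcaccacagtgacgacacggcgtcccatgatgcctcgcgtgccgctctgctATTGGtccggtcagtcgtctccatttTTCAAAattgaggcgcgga
Cdk1 (chr10:69352913-69353062, minus strand): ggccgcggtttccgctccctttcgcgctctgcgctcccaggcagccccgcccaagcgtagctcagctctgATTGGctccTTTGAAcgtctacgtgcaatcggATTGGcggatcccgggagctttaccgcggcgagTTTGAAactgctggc
Cdc20 (chr4:118437344-118437493, minus strand): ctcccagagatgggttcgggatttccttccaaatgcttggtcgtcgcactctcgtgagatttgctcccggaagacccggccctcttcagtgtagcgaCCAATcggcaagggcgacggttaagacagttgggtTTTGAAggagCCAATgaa
Melk (chr4:44300767-44300916, plus strand): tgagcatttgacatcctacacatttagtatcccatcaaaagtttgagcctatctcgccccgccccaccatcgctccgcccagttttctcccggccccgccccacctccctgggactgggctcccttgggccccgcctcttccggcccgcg
In Kif11 the CCAAT box began 45 and the CHR 19 bases before the start, and in Cdk1 CCAAT boxes began 80 and 48 and CHRs 71 and 15 bases before it. In Cdc20 the CHR began 18 bases before the start, with CCAAT boxes at 53 and 8. The 150 bases of Top2a held 4 CCAAT boxes and 3 CHRs, and those of Mki67 held 1 and 2.

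Promoter windows from 250 bases before to 50 after the start were found for 40 of the 48 genes, counting a gene with several windows once; Kif20a, Ccna2, Aurkb, Pbk, Tpx2, Dlgap5, Smc4 and Foxm1 were not matched. A CHR was in 32 of 40 genes (80% of them), against 19% of the 15614 tested genes with a window. A CCAAT box was in 29 of 40 (72.5%), against 41.7%, and the elements occurred together in 27 of 40 (67.5%), against 8.78%. Of the 40 genes, 28 had a CHR that began within 50 bases of the start and 19 had 2 or more CCAAT boxes in a window. How many of all genes with a window did so was not counted, so these counts have no background. An E2F motif (TTGGCGC or TTCGCGC on either strand, where an A before TTGGCGC also makes a CCAAT box on the other strand) was in 7 of 40 genes (17.5%), against 6.11% of all. Of genes of DNA replication, 9 of 34 held a CHR (26.5%), 22 of 34 a CCAAT box (64.7%) and 15 of 34 an E2F motif (44.1%). Of the other mitotic genes, 19 of 31 held a CHR (61.3%), 20 of 31 a CCAAT box (64.5%) and 4 of 31 an E2F motif (12.9%). The median VE minus N difference was 1.07 log2 units in the 27 genes with CHR and CCAAT box, 1.14 in the 5 with a CHR alone, 0.82 in the 2 with a CCAAT box alone (Cenpe and Nek2) and 0.99 in the 6 with neither (Birc5, Kif18a, Mad2l1, Melk, Nuf2 and Plk4). A match describes these letters and is not a measured binding site, and the test of a difference between these classes was not run.

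**Figure D3:**
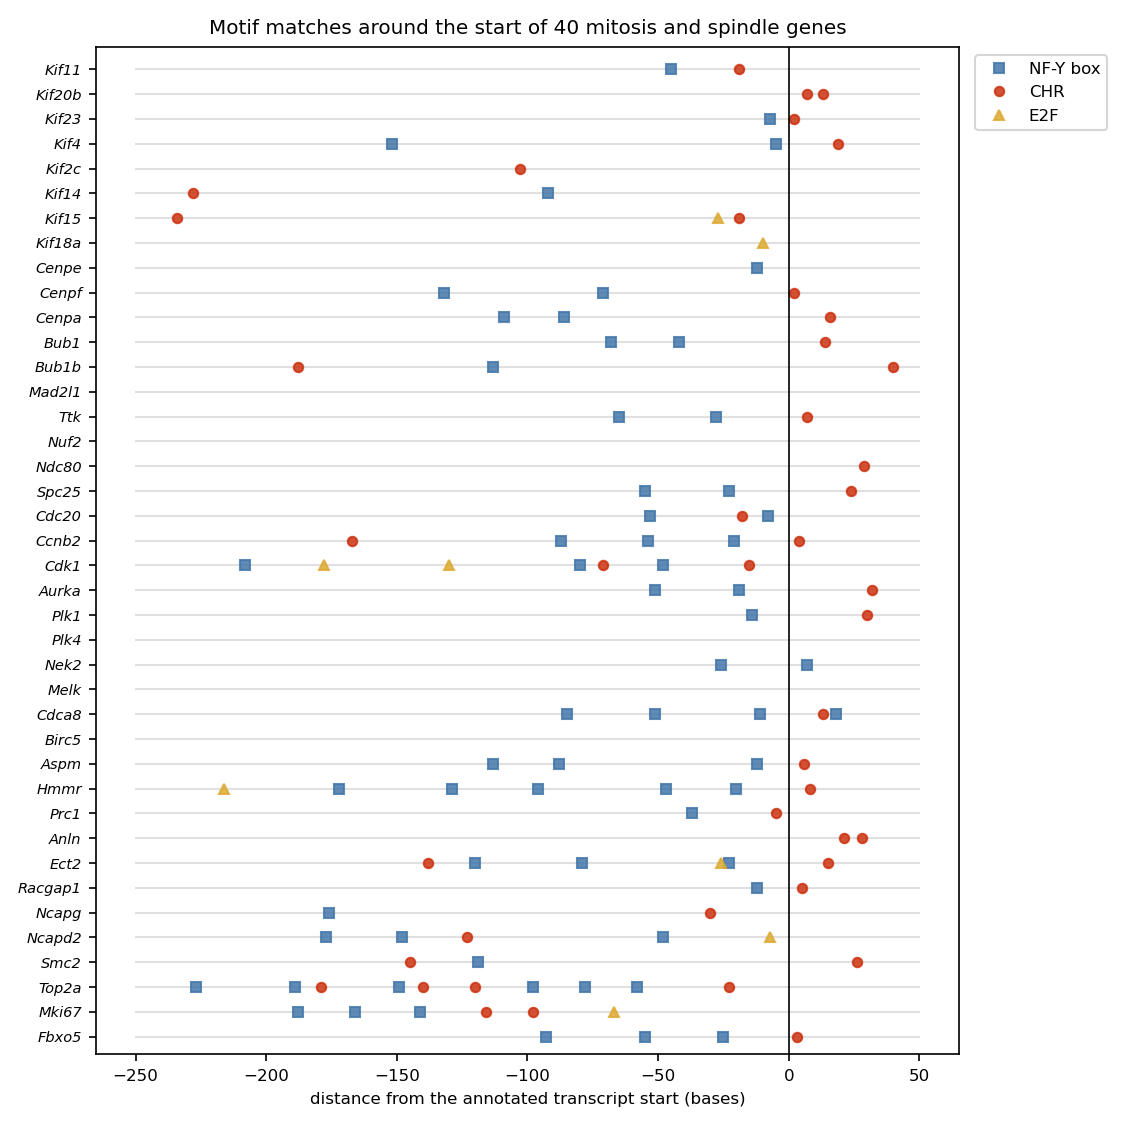
Matches to the CCAAT box (NF-Y box, squares), the CHR (circles) and the E2F motif (triangles) in the promoter windows of 40 genes, placed by distance in bases from the annotated transcript start, with 1 window a gene. Circles gather around the start and squares stand mostly before it. A CHR begins within 50 bases of the start in 28 of the 40 genes, and the share among all genes was not counted.

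Motor proteins made up 10 of the genes, and all 10 rose in the VE-labelled line against N, by 0.84 (Cenpe) to 1.53 (Kif11) log2 units, and fell in VE+N against VE, by −1.27 (Kif2c) to −0.80 (Kif14). Kif11, the motor that pushes spindle poles apart, had log2 signals of 6.67 and 6.61 on the VE+N-labelled arrays, 7.81 and 7.98 on the VE-labelled arrays and 6.28 and 6.46 on the N-labelled arrays. Its VE minus N difference was 1.53 ± 0.114 (SE, adjusted p = 8.5e-05) and its VE+N minus N difference 0.28 ± 0.114 (adjusted p = 0.148). Kif15, which can share the work of Kif11, had 6.18 and 6.58 on the VE+N-labelled arrays, 7.298 and 7.36 on the VE-labelled arrays and 5.87 and 5.99 on the N-labelled arrays. Kif15 had the highest VE+N minus N difference of the 48 genes, 0.45 ± 0.141, which missed the threshold (adjusted p = 0.0632) and passed without VE+N replicate 1 (0.65, adjusted p = 0.0133). Thus Kif11 and Kif15 were lowest on the N-labelled arrays, with no overlap between lines.
Kif2c, a microtubule depolymerase that corrects faulty attachments, had 6.52 and 6.28 on the VE+N-labelled arrays, 7.54 and 7.81 on the VE-labelled arrays and 6.75 and 6.68 on the N-labelled arrays. Here the VE+N-labelled arrays were the lowest, and VE+N minus N was −0.32 ± 0.132 (adjusted p = 0.149). Kif18a, which dampens chromosome movements on the spindle, had 5.29 and 4.896 on the VE+N-labelled arrays, 5.97 and 6.22 on the VE-labelled arrays and 5.18 and 5.23 on the N-labelled arrays. Its VE+N-labelled arrays lay on either side of the N-labelled ones. Cenpe, the kinetochore motor that brings chromosomes to the spindle equator, had 5.82 and 5.82 on the VE+N-labelled arrays, 6.65 and 7.04 on the VE-labelled arrays and 6.04 and 5.96 on the N-labelled arrays, and rose least among the motors, by 0.84 ± 0.136 (adjusted p = 0.00433).
The other motors act in anaphase and cytokinesis. Kif4, a chromokinesin of the central spindle, had 6.04 and 6.04 on the VE+N-labelled arrays, 7.07 and 7.53 on the VE-labelled arrays and 6.03 and 6.13 on the N-labelled arrays. Kif14, a midbody motor, had 4.903 and 5.06 on the VE+N-labelled arrays, 5.68 and 5.88 on the VE-labelled arrays and 4.75 and 4.68 on the N-labelled arrays. Kif20a, which carries the passenger complex to the central spindle, had 7.47 and 7.06 on the VE+N-labelled arrays, 8.303 and 8.34 on the VE-labelled arrays and 7.31 and 7.36 on the N-labelled arrays. Its VE-labelled arrays were nearly equal. Kif20b, needed for the last step of cell separation, had 6.19 and 6.23 on the VE+N-labelled arrays, 7.24 and 7.38 on the VE-labelled arrays and 6.17 and 6.17 on the N-labelled arrays. Kif23, which forms centralspindlin with Racgap1, had 7.64 and 7.298 on the VE+N-labelled arrays, 8.33 and 8.43 on the VE-labelled arrays and 7.34 and 7.19 on the N-labelled arrays. In Kif4, Kif20a and Kif23 the VE+N-labelled and N-labelled arrays overlapped, and in Kif14 and Kif20b the VE+N-labelled arrays were both above.

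Kinetochore and checkpoint genes moved in the same directions: 10 of 10 rose in VE against N, with a median of 1.04, and 10 of 10 fell in VE+N against VE, with a median of −1.04. Ttk, the kinase that starts checkpoint signalling, rose most, with 6.003 and 6.05 on the VE+N-labelled arrays, 7.18 and 7.25 on the VE-labelled arrays and 5.85 and 5.91 on the N-labelled arrays. The difference VE minus N was 1.33 ± 0.0971 (adjusted p = 7.53e-05) and VE+N minus VE −1.19 ± 0.0971 (adjusted p = 0.000253). Its VE+N-labelled arrays were both above the N-labelled ones. Bub1, a checkpoint kinase, had 6.53 and 6.68 on the VE+N-labelled arrays, 7.85 and 7.88 on the VE-labelled arrays and 6.92 and 6.803 on the N-labelled arrays. Bub1b, its relative in the checkpoint complex that restrains Cdc20, had 6.92 and 6.704 on the VE+N-labelled arrays, 7.94 and 8.02 on the VE-labelled arrays and 6.95 and 7.02 on the N-labelled arrays. Mad2l1, another part of that complex, had 7.896 and 7.63 on the VE+N-labelled arrays, 8.73 and 8.71 on the VE-labelled arrays and 7.98 and 8.12 on the N-labelled arrays. In these 3 genes the VE+N-labelled arrays were both below the N-labelled ones, with VE+N minus N at −0.25, −0.17 and −0.29, none of them called (adjusted p = 0.149, 0.36 and 0.152).
Nuf2, Ndc80 and Spc25 belong to the Ndc80 complex, which ties kinetochores to microtubules. Nuf2 had 6.696 and 6.72 on the VE+N-labelled arrays, 7.64 and 7.89 on the VE-labelled arrays and 6.63 and 6.74 on the N-labelled arrays. Ndc80 had 6.12 and 6.098 on the VE+N-labelled arrays, 7.09 and 7.07 on the VE-labelled arrays and 5.96 and 5.92 on the N-labelled arrays. Spc25 had 7.69 and 7.301 on the VE+N-labelled arrays, 8.53 and 8.498 on the VE-labelled arrays and 7.27 and 7.204 on the N-labelled arrays. All 3 subunits rose in the VE-labelled line, by 1.08, 1.14 and 1.28. Spc25 was called higher in VE+N than in N without VE+N replicate 2 (0.45, adjusted p = 0.0382), and not with all arrays (0.26, adjusted p = 0.256).
Cenpa, the histone variant that marks centromeres, had 7.76 and 7.28 on the VE+N-labelled arrays, 8.32 and 8.35 on the VE-labelled arrays and 7.63 and 7.62 on the N-labelled arrays. Cenpf, a large protein of the outer kinetochore, had 6.47 and 6.49 on the VE+N-labelled arrays, 7.53 and 7.81 on the VE-labelled arrays and 6.64 and 6.52 on the N-labelled arrays. Cdc20, which activates the anaphase-promoting complex once the checkpoint is satisfied, had 6.93 and 6.79 on the VE+N-labelled arrays, 7.62 and 7.59 on the VE-labelled arrays and 6.85 and 7.03 on the N-labelled arrays. Cdc20 rose least of the 10 genes, by 0.66 ± 0.11 (adjusted p = 0.00495), and Cenpa had the highest adjusted p of them (0.0164) with a spread of 0.34 (SD, n = 2) between its VE+N-labelled arrays.

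Among cyclins and mitotic kinases 10 of 10 rose in VE against N and 10 of 10 fell in VE+N against VE, and 8 of 10 had a VE+N minus N difference below 0. Ccna2, the cyclin of S phase and early mitosis, had 8.81 and 8.47 on the VE+N-labelled arrays, 10.15 and 9.92 on the VE-labelled arrays and 8.503 and 8.48 on the N-labelled arrays. It rose by 1.55 ± 0.139 in VE against N (adjusted p = 0.000219) and its VE+N minus VE difference was −1.397 ± 0.139 (adjusted p = 0.000655). Ccnb2, a B-type cyclin, had 8.695 and 8.39 on the VE+N-labelled arrays, 9.57 and 9.54 on the VE-labelled arrays and 8.98 and 9.01 on the N-labelled arrays. Ccnb2 was the single gene of the 48 for which the 3 lines were all called apart: VE minus N was 0.56 ± 0.122 (adjusted p = 0.0174), VE+N minus N −0.46 ± 0.122 (adjusted p = 0.0347) and VE+N minus VE −1.02 ± 0.122 (adjusted p = 0.00156). Its VE+N minus N call held without VE+N replicate 1 and did not pass when any other array was left out: the adjusted p was 0.114 without VE+N replicate 2, 0.0682 without either VE array, 0.132 without N replicate 1 and 0.151 without N replicate 2. Cdk1, the kinase that both cyclins activate, had 8.18 and 7.78 on the VE+N-labelled arrays, 9.04 and 8.76 on the VE-labelled arrays and 8.04 and 8.04 on the N-labelled arrays, with a VE minus N difference of 0.86 ± 0.155 (adjusted p = 0.00754).
Aurka, the Aurora kinase of centrosomes and spindle poles, had 7.06 and 6.59 on the VE+N-labelled arrays, 7.86 and 7.86 on the VE-labelled arrays and 7.0004 and 6.93 on the N-labelled arrays. Aurkb, the Aurora kinase of the passenger complex, had 7.61 and 7.33 on the VE+N-labelled arrays, 8.87 and 8.77 on the VE-labelled arrays and 7.63 and 7.44 on the N-labelled arrays. The VE minus N difference was 0.89 ± 0.152 for Aurka and 1.28 ± 0.128 for Aurkb. The VE+N-labelled arrays of Aurka lay on either side of the N-labelled ones. Plk1, a kinase of mitotic entry, spindle and cytokinesis, had 7.86 and 7.43 on the VE+N-labelled arrays, 8.99 and 8.94 on the VE-labelled arrays and 7.998 and 7.94 on the N-labelled arrays. Without VE+N replicate 1 Plk1 was called lower in VE+N than in N (−0.54, adjusted p = 0.0193), against −0.32 with all arrays (adjusted p = 0.177).
Plk4, which starts centriole duplication, had 6.08 and 5.94 on the VE+N-labelled arrays, 6.699 and 7.02 on the VE-labelled arrays and 5.95 and 6.02 on the N-labelled arrays. Nek2, a kinase that separates centrosomes, had 6.88 and 6.85 on the VE+N-labelled arrays, 7.84 and 7.81 on the VE-labelled arrays and 6.94 and 7.12 on the N-labelled arrays. In Plk4 the VE+N-labelled arrays lay on either side of the N-labelled ones. Melk, a kinase found in dividing cells, had 6.297 and 6.27 on the VE+N-labelled arrays, 7.700 and 7.86 on the VE-labelled arrays and 6.57 and 6.52 on the N-labelled arrays. Melk, whose promoter window held neither a CHR nor a CCAAT box, had among the most negative VE+N minus VE differences, −1.498 ± 0.103 (adjusted p = 0.000109). The 6 genes with neither element ran from −1.498 to −0.85 in this comparison, with a median of −1.03. The 27 genes with both also had a median of −1.03, and a difference between these classes was not tested. Pbk, another mitotic kinase, had 6.68 and 6.56 on the VE+N-labelled arrays, 7.82 and 7.93 on the VE-labelled arrays and 6.86 and 6.68 on the N-labelled arrays. In Nek2, Melk and Pbk both VE+N-labelled arrays were below both N-labelled arrays, with VE+N minus N at −0.16, −0.26 and −0.16, none called.

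Cdca8 and Birc5 encode borealin and survivin, which with Aurkb form the chromosomal passenger complex. Cdca8 had 6.497 and 6.33 on the VE+N-labelled arrays, 7.47 and 7.35 on the VE-labelled arrays and 6.42 and 6.35 on the N-labelled arrays. Birc5 had 6.66 and 6.21 on the VE+N-labelled arrays, 7.59 and 7.67 on the VE-labelled arrays and 6.44 and 6.55 on the N-labelled arrays. The subunits rose by 1.03 ± 0.108 and 1.13 ± 0.15 in VE against N, and in Birc5 the VE+N-labelled arrays lay on either side of the N-labelled ones.

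Spindle assembly factors gave 5 of 5 higher in VE than in N and 5 of 5 lower in VE+N than in VE. Prc1, which bundles antiparallel microtubules at the central spindle, had 7.04 and 7.16 on the VE+N-labelled arrays, 8.07 and 8.397 on the VE-labelled arrays and 6.87 and 6.75 on the N-labelled arrays. It rose most of the 5, by 1.43 ± 0.131 (adjusted p = 0.000244). Tpx2, an activator of Aurka, had 7.79 and 7.72 on the VE+N-labelled arrays, 8.84 and 8.98 on the VE-labelled arrays and 7.94 and 7.93 on the N-labelled arrays. Hmmr, a spindle protein also known as a hyaluronan receptor, had 5.53 and 5.72 on the VE+N-labelled arrays, 6.61 and 6.705 on the VE-labelled arrays and 5.35 and 5.58 on the N-labelled arrays. The VE+N-labelled arrays were below the N-labelled ones in Tpx2, and overlapped with them in Hmmr. Aspm, a protein of spindle poles, had 6.01 and 5.81 on the VE+N-labelled arrays, 6.74 and 6.97 on the VE-labelled arrays and 5.79 and 5.89 on the N-labelled arrays. Dlgap5, which stabilises kinetochore fibres, had 6.75 and 6.57 on the VE+N-labelled arrays, 7.72 and 7.74 on the VE-labelled arrays and 6.96 and 6.76 on the N-labelled arrays.

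The cytokinesis genes had the highest median VE minus N difference of the 8 roles, 1.33 log2 units over 3 genes. Ect2, the exchange factor that activates RhoA at the cleavage furrow, had 6.92 and 6.82 on the VE+N-labelled arrays, 8.25 and 8.52 on the VE-labelled arrays and 7.05 and 7.06 on the N-labelled arrays. Its VE+N minus VE difference, −1.51 ± 0.119 (adjusted p = 0.000196), was the second most negative of the 48 genes after Mki67. Racgap1, the partner of Kif23 that binds Ect2, had 8.197 and 8.04 on the VE+N-labelled arrays, 9.36 and 9.57 on the VE-labelled arrays and 8.07 and 8.18 on the N-labelled arrays, with VE+N minus N at −0.005 ± 0.118 (95% interval −0.28 to 0.27). Anln, or anillin, a scaffold of the contractile ring, had 7.57 and 7.46 on the VE+N-labelled arrays, 8.79 and 8.91 on the VE-labelled arrays and 7.59 and 7.64 on the N-labelled arrays.

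Chromosome proteins held the gene with the highest and the gene with the lowest VE minus N difference. Mki67, which coats mitotic chromosomes and is the usual marker of proliferating cells, had 7.998 and 7.97 on the VE+N-labelled arrays, 9.38 and 9.67 on the VE-labelled arrays and 7.94 and 7.75 on the N-labelled arrays. It rose by 1.68 ± 0.128 in VE against N (adjusted p = 9.13e-05) and differed by −1.54 ± 0.128 in VE+N against VE (adjusted p = 0.000265), the largest of the 48 genes each time. Top2a, the topoisomerase that untangles sister chromatids, had 7.95 and 7.901 on the VE+N-labelled arrays, 9.27 and 9.33 on the VE-labelled arrays and 7.86 and 7.89 on the N-labelled arrays, with 1.42 ± 0.0956 for VE minus N (adjusted p = 5.02e-05) and −1.37 ± 0.0956 for VE+N minus VE (adjusted p = 0.000112). Smc4, an ATPase subunit of condensin, had 7.99 and 8.296 on the VE+N-labelled arrays, 8.41 and 8.64 on the VE-labelled arrays and 8.01 and 8.11 on the N-labelled arrays. Its VE-labelled arrays were the highest, yet VE minus N, 0.46 ± 0.136, missed the threshold (adjusted p = 0.0599), as did VE+N minus VE, −0.38 ± 0.136 (adjusted p = 0.138).
Smc2, which pairs with Smc4 in condensin, had 7.06 and 7.15 on the VE+N-labelled arrays, 7.98 and 8.28 on the VE-labelled arrays and 7.12 and 7.23 on the N-labelled arrays, and rose by 0.96 ± 0.125 (adjusted p = 0.00151). Ncapg, a subunit of condensin I, had 6.49 and 6.68 on the VE+N-labelled arrays, 7.86 and 8.25 on the VE-labelled arrays and 6.91 and 6.94 on the N-labelled arrays. Ncapd2, another subunit of condensin I, had 8.04 and 7.901 on the VE+N-labelled arrays, 9.01 and 8.89 on the VE-labelled arrays and 8.04 and 7.92 on the N-labelled arrays. The condensin I subunits Ncapg and Ncapd2 rose by 1.13 and 0.97, so the condensin genes other than Smc4 all rose, while a difference between Smc4 and the other subunits was not tested.

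The last 2 genes control the programme itself. Foxm1, the transcription factor that activates late cell cycle genes, had 7.07 and 6.999 on the VE+N-labelled arrays, 8.26 and 8.03 on the VE-labelled arrays and 6.84 and 7.01 on the N-labelled arrays. It rose by 1.22 ± 0.119 in VE against N (adjusted p = 0.000327). Fbxo5, an inhibitor of the anaphase-promoting complex, had 7.27 and 6.99 on the VE+N-labelled arrays, 8.02 and 7.91 on the VE-labelled arrays and 7.52 and 7.26 on the N-labelled arrays, and rose by 0.57 ± 0.137 (adjusted p = 0.0262).

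The arrays of a line differed slightly in these genes as a block. VE+N replicate 1 was above VE+N replicate 2 in 35 of the 48 genes, with a median of 0.12 log2 units, from −0.40 in Kif15 to 0.48 in Cenpa, and in 50.4% of all genes. VE replicate 1 was above VE replicate 2 in 14 of 48, with a median of −0.09, and in 50.6% of all genes. N replicate 1 was above N replicate 2 in 24 of 48, with a median of −0.0020, and in 51.3% of all genes. The sign of the small VE+N minus N median followed this: it was −0.12 without VE+N replicate 1 and 0.0650 without VE+N replicate 2. These shifts are small against the gap of about 1 log2 unit to the VE-labelled line.

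Other genes of the cell cycle were read from lists chosen for their function. Of 40 further mitotic genes 38 were measured, and 36 rose and 0 fell in VE against N, with a median of 0.95. In VE+N against VE 0 rose and 35 fell, with a median of −0.90, and in VE+N against N 5 rose and 1 fell, with a median of 0.01. Ncaph, a condensin I subunit, had 7.32 and 7.19 on the VE+N-labelled arrays, 8.02 and 8.102 on the VE-labelled arrays and 6.61 and 6.55 on the N-labelled arrays. Nusap1, a spindle protein, had 7.15 and 7.05 on the VE+N-labelled arrays, 8.04 and 7.96 on the VE-labelled arrays and 6.66 and 6.61 on the N-labelled arrays. In both, all 3 lines were apart, with the VE+N-labelled arrays between the others. Ckap2, a spindle protein, had 6.74 and 6.82 on the VE+N-labelled arrays, 6.97 and 6.904 on the VE-labelled arrays and 5.87 and 5.88 on the N-labelled arrays. Gtse1, which acts in late cell cycle phases, had 6.48 and 6.002 on the VE+N-labelled arrays, 6.23 and 6.39 on the VE-labelled arrays and 5.38 and 5.35 on the N-labelled arrays. In Ckap2 and Gtse1 the VE+N-labelled arrays were near the VE-labelled ones, and VE+N minus N was 0.90 ± 0.0969 (adjusted p = 0.000412) and 0.88 ± 0.158 (adjusted p = 0.00603).
Of 39 measured DNA replication genes 29 rose and 0 fell in VE against N, with a median of 0.63, and 0 rose and 31 fell in VE+N against VE, with a median of −0.85. In VE+N against N 2 rose and 7 fell, with a median of −0.23, where 33 of 39 differences were below 0. Prim1, the primase subunit that starts DNA chains, had 7.75 and 7.56 on the VE+N-labelled arrays, 8.33 and 8.31 on the VE-labelled arrays and 6.77 and 6.91 on the N-labelled arrays. Mcm3, a subunit of the replicative helicase, had 7.77 and 7.697 on the VE+N-labelled arrays, 8.43 and 8.34 on the VE-labelled arrays and 8.302 and 8.24 on the N-labelled arrays. Ccne1, the cyclin that drives entry into S phase, had 7.096 and 6.54 on the VE+N-labelled arrays, 8.31 and 8.27 on the VE-labelled arrays and 7.19 and 7.07 on the N-labelled arrays. Mcm3 was thus close in the VE-labelled and N-labelled lines and lowest in VE+N, while Prim1 was lowest in N.
Regulators of G1 did not move as 1 block. Of 23 measured, 10 rose and 1 fell in VE against N, 8 rose and 4 fell in VE+N against N, and 3 rose and 6 fell in VE+N against VE. Ccnd1, or cyclin D1, had 9.57 and 9.402 on the VE+N-labelled arrays, 10.05 and 10.18 on the VE-labelled arrays and 9.08 and 9.003 on the N-labelled arrays. Cdkn1c, or p57, an inhibitor of cyclin-dependent kinases, had 5.77 and 5.52 on the VE+N-labelled arrays, 5.58 and 5.83 on the VE-labelled arrays and 6.66 and 6.58 on the N-labelled arrays. Cdkn1c was highest in the N-labelled line, and was called lower in VE (−0.92 ± 0.131, adjusted p = 0.00238) and in VE+N (−0.97 ± 0.131, adjusted p = 0.00138). Cdkn2c, another such inhibitor, went the other way and was lowest in the N-labelled line. It was called higher in VE (1.27 ± 0.1335, adjusted p = 0.000481) and in VE+N (1.07 ± 0.1335, adjusted p = 0.00089). Myc, a growth-promoting transcription factor, had 7.501 and 7.33 on the VE+N-labelled arrays, 8.76 and 8.81 on the VE-labelled arrays and 8.28 and 8.39 on the N-labelled arrays. Cdkn2a, the locus of the p16 and ARF tumour suppressors, had 6.84 and 6.58 on the VE+N-labelled arrays, 8.19 and 8.18 on the VE-labelled arrays and 7.63 and 7.56 on the N-labelled arrays. Myc and Cdkn2a were lowest in VE+N and differed by −1.37 ± 0.108 and −1.48 ± 0.115 in VE+N against VE (adjusted p = 0.000196 and 0.000193). Mdm2, a target and inhibitor of p53, had 9.18 and 9.25 on the VE+N-labelled arrays, 8.31 and 8.53 on the VE-labelled arrays and 7.94 and 7.95 on the N-labelled arrays. Ccng1, another p53 target, had 10.28 and 10.33 on the VE+N-labelled arrays, 9.45 and 9.56 on the VE-labelled arrays and 9.42 and 9.47 on the N-labelled arrays. Both were highest in VE+N, by 0.79 ± 0.110 and 0.80 ± 0.0988 over VE (adjusted p = 0.00314 and 0.00179).

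**Figure D4:**
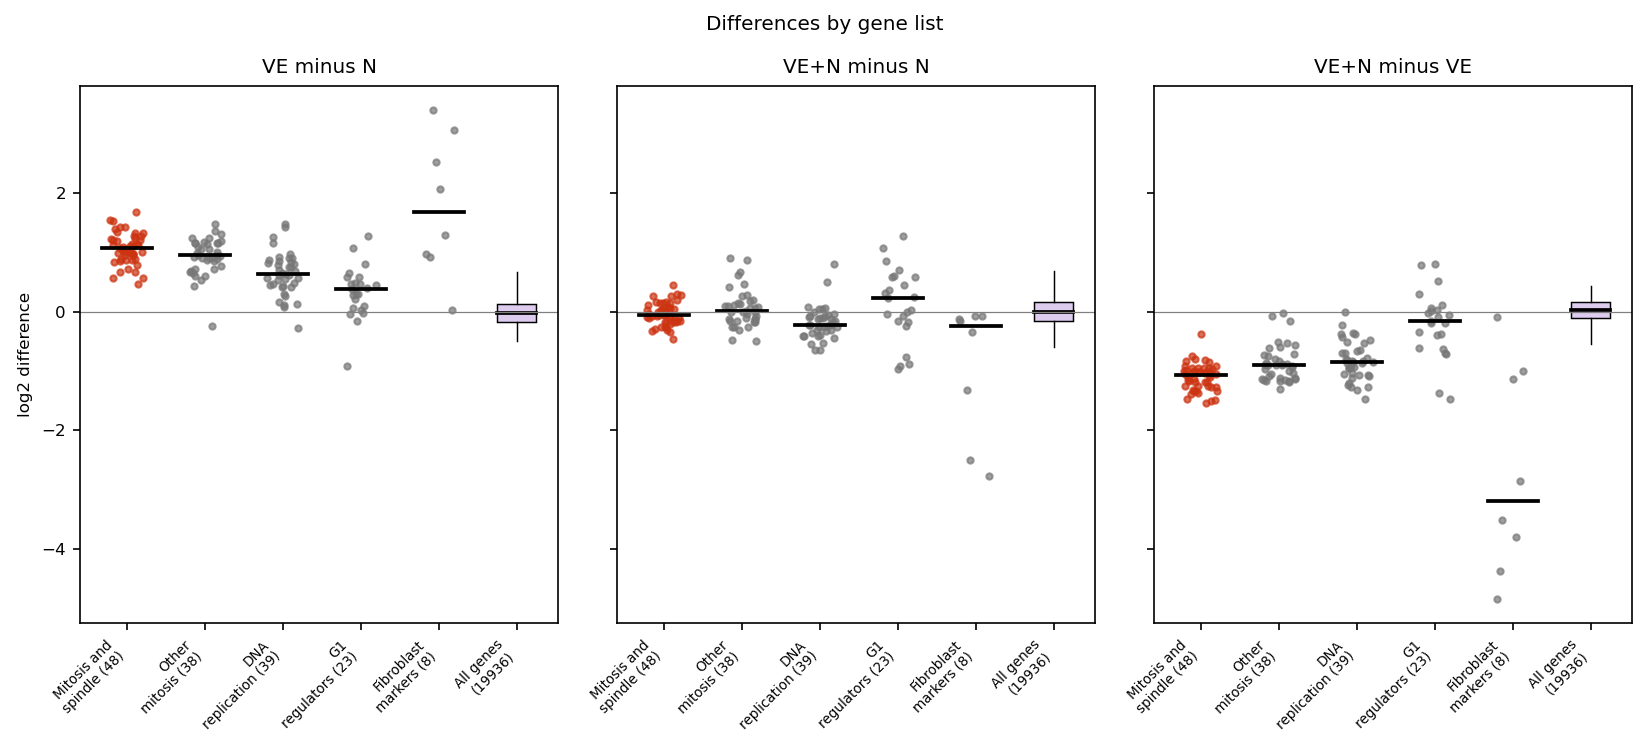
Log2 differences of single genes (points) by gene list, with 1 panel a comparison and bars at the list medians; the box at the right of each panel spans the quartiles of all 19936 genes, with lines from the 5% to the 95% quantile. The 48 mitosis and spindle genes lie around 1.07, −0.06 and −1.06 in the 3 panels.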

How the data were processed

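Each of 6 samples, 2 for each of 3 lines, was hybridised to 1 array, and groups follow the line named in the title. The authors deposited log2 values for 35556 probe sets, and the submitters' processing notes name RMA and Partek 6.3 for them; RMA subtracts background, equalizes quantiles and summarizes probe sets. That the scale is log2 follows from the values' range. Of the probe sets 21789 carried 1 symbol and 1621 several; symbols were updated through RefSeq gene identifiers, and the brightest probe set of a gene was kept, without a signal filter. Median log2 signal over all probe sets was 4.85 to 4.91 on the arrays, and arrays have no read depth. Lines were compared with limma 3.58.1 in R 4.3.3 (3 residual and 4.89 prior degrees of freedom), with Benjamini-Hochberg adjustment over 19936 genes. In 10 simulations of VE minus N with 200 genes of 19936 raised by 1 log2 unit, 70.6% were called and 3.36% of calls were false. There all other genes had no difference, noise was normal and independent, and spreads were shuffled between genes. In the data 3079 genes were called, so these shares are not error rates of the calls made here. The 48 genes, the lists and the tests were chosen with earlier results of these data known. All 48 genes could be named, with values on every array where a gene was not called in VE minus N or VE+N minus N or changed most; from the other lists, up to 4 called genes with the largest change in a comparison. Genes Ccnb1, Kifc1, Cdkn1a and Trp53, among others of those lists, were not analysed here. Promoter motifs were sought in RefSeq windows of GRCm38.p6, and no assembly is named for the array values.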

Additional observations from a re-analysis of the deposited data

How the results depend on the processing

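No call of the 48 genes changed direction under any alternative run. The analysis of variance named in the methods, after Benjamini-Hochberg adjustment, called 25 genes higher in VE than in N and 8 lower in VE+N than in VE; at an unadjusted p of 0.05 and over 2-fold, 29 were higher in VE than in N; treat against 1.5-fold called 19 and 19. The analysis of variance shares no variance between genes, and treat asks for a larger change. Median centring gave a VE minus N median of 0.96. In VE+N minus N, 1 gene was called higher with the replicate block, the trended robust prior or without the dimmest 25% or 50% of genes (Kif15 each time) and with the adjusted analysis of variance (Ndc80). The genes called lower were 0 with only the 4 arrays of the lines compared, with either form of the analysis of variance and with treat, and 2 without the dimmest 50%, where Kif14 and Kif18a were not tested. Over the arrays left out in turn, VE minus N gave 41 to 48 called higher with a median of 0.99 to 1.13, VE+N minus N gave 0 to 1 higher, 0 to 2 lower and a median of −0.12 to 0.0650, and VE+N minus VE gave 44 to 47 lower with a median of −1.17 to −1.04. Smc4 passed in VE minus N with only 4 arrays, the replicate block, array weights, the trended prior, repeated quantile normalization, without the dimmest 25% or 50% of genes and without VE+N replicate 1 or 2 (adjusted p = 0.0146 to 0.0403), and Kif14 lost its VE+N minus VE call with the mean of its probe sets (adjusted p = 0.0893). Among all genes, median centring moved the called genes of VE minus N to 1283 higher and 2398 lower, against 1686 and 1393. Called genes numbered 3079 in VE minus N, 3802 in VE+N minus N and 2020 in VE+N minus VE, against 1276, 1867 and 311 with the adjusted analysis of variance, 751, 909 and 493 with its unadjusted form, 590, 795 and 334 with treat, and as few as 1688, 2243 and 966 with an array left out. Replicate numbers did not pair the arrays (correlations of deviations 0.07 for VE+N and VE, 0.12 for VE+N and N and −0.01 for VE and N); with the replicate block 48 genes were called higher in VE minus N and 47 lower in VE+N minus VE. The arrays hold no detection calls, so signal over background was not assessed.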

Other observations

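The 5 genes outside the lists whose signals over the 6 arrays were most like the mean of the 48 genes were Xdh, Rnf19b, Sema5a, Slc7a5 and Col6a3, among 3671 genes with an SD of at least 0.282, with Pearson correlations of 0.999 for Xdh, Rnf19b and Sema5a and 0.997 for Slc7a5 and Col6a3. This is a description over 3 lines, which the VE-labelled arrays set apart. Slc7a5, a transporter of large neutral amino acids, had 6.79 and 6.76 on the VE+N-labelled arrays, 7.95 and 8.07 on the VE-labelled arrays and 6.77 and 6.71 on the N-labelled arrays. Xdh, the xanthine dehydrogenase that makes uric acid, had 4.67 and 4.41 on the VE+N-labelled arrays, 6.28 and 6.36 on the VE-labelled arrays and 4.61 and 4.64 on the N-labelled arrays. Sema5a, a guidance molecule, had 4.25 and 3.93 on the VE+N-labelled arrays, 6.80 and 7.18 on the VE-labelled arrays and 4.31 and 4.34 on the N-labelled arrays, and Col6a3, a collagen chain, had 4.92 and 4.73 on the VE+N-labelled arrays, 7.81 and 7.79 on the VE-labelled arrays and 5.10 and 4.95 on the N-labelled arrays.

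Kif14 and Top2a had a second probe set with their symbol alone. Top2a was also among the symbols of 2 probe sets annotated to several genes, which were not used. The second Kif14 probe set had log2 signals between 2.35 and 2.72 on the 6 arrays, with a VE minus N difference of −0.14, against 1.07 for the brighter one. The second Top2a probe set lay between 1.81 and 2.59, with a VE minus N difference of 0.45, against 1.42 for the brighter one. Both dim probe sets lay far below the median gene.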
